A study of Mus musculus with 10 samples.

Results

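DNA methylation was compared between leukaemias driven by cMyc and Bcl2 with and without a Dnmt3b knockin, in 4 of the 10 libraries of the series. CpGs on the 19 autosomes with at least 10 reads in all 4 libraries were summed in 1000-bp windows holding at least 3 of them, which left 661909 CpGs in 55547 windows. A window was called gained where both knockin libraries lay at least 25 percentage points above both WT libraries, and lost where both lay at least 25 points below. There were 884 gained windows, or 1.59% of those tested, and 57 lost windows, or 0.103%. These 2 words describe the rule, which involves no test.

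The material was genomic DNA of leukaemic spleen, profiled by reduced representation bisulfite sequencing. In this assay DNA is cut with MspI, short CpG-rich fragments are kept, and bisulfite turns unmethylated cytosine into a base read as thymine. The compared groups were 2 libraries of cMyc-Bcl2 leukaemic spleen cells labelled WT and 2 labelled Dnmt3b-knockin, and all 4 carry both oncogenes. The other 6 libraries came from c-kit+ spleen cells of MLL-AF9 leukaemia, 3 WT and 3 knockin, and were used for comparison only. The series describes the knockin as a tetracycline-inducible mouse model with high Dnmt3b expression. The labels do not give the cell type in which the knockin is active, the age, the sex, or whether replicates are separate animals, so a p-value reflects no more than the spread among the libraries, which may be technical. The cMyc-Bcl2 cells carry no label of a sort, and the cell type was not checked here, since the files hold no expression. A window level is an average over cells, and a change in some cells cannot be told apart from a different mixture of cells.

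Dnmt3b is an enzyme that sets methyl groups on CpGs that carried none, whereas Dnmt1 copies existing marks after replication. Most CpGs of mammalian genomes are methylated, while CpG islands, the dense stretches at many gene starts, are mostly free of the mark in normal cells and can acquire it in cancers. The transcription factor cMyc drives growth and division, and Bcl2 blocks apoptosis.

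The 4 libraries held 28229131 to 46762220 read calls at CpGs, and 832529 to 932349 CpGs with at least 10 reads. At mitochondrial CpGs, where methylated calls are mostly cytosines that escaped conversion, the methylated share was 2.22% in WT replicate 1 and 0.910 to 1.15% in the other three. Window levels correlated with a Pearson r of 0.969 between the WT libraries, 0.968 between the knockin libraries and 0.951 to 0.955 between groups, across windows that share a library and are not replicates. Relative depth of chromosomes 15, 16 and 17 differed between libraries of a group, reaching 1.24 on chromosome 16 in knockin replicate 1. Without these chromosomes 767 windows were gained and 49 lost. Calls on chromosome Y numbered 1493 in WT replicate 2 and 165 to 233 in the other three.

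The regulatory sequences in which the gains can be seen base by base are shown first. Start sites were placed on mm9, the build of the files, by matching the CpG spacing of RefSeq promoters to the listed positions, and each sequence is the 250 bases before the start, 5′ to 3′ on the gene's strand, from the RefSeq table of build GRCm38.p6. Capitals mark the CpGs that had at least 10 reads in all 4 libraries. The 5 were chosen after their values were seen, as promoters whose gain lies before the start itself.
Sema4b: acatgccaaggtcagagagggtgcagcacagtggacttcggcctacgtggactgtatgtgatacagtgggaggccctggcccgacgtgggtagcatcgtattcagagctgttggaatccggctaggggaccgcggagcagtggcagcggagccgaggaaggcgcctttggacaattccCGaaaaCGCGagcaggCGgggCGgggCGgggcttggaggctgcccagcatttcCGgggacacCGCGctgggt
Smc1b: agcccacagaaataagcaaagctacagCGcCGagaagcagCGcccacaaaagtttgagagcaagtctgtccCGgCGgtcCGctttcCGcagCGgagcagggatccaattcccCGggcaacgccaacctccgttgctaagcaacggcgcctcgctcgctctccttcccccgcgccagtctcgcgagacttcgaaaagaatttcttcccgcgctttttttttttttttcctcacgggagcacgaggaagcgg
Gal: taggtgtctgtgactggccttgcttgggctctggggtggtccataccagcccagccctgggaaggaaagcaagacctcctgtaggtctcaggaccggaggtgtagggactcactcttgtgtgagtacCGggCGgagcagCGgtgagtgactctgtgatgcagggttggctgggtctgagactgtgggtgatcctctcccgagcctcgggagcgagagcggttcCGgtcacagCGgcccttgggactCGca
Sstr4: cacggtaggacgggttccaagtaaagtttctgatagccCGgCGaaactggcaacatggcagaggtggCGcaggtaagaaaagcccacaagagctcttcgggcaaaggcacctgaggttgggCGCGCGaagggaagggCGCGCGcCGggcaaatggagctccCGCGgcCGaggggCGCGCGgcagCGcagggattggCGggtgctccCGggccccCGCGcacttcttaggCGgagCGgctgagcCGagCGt
Ctnna2: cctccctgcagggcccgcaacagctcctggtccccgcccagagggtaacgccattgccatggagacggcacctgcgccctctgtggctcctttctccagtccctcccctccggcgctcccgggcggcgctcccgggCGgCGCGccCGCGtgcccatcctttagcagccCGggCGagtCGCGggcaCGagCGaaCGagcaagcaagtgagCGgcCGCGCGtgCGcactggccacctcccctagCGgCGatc

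Sema4b encodes a transmembrane semaphorin, and its start matched position 87331756 of chromosome 7. Over the 9 measured CpGs of the 20 shown, methylation was 17.3% and 8.46% in the WT libraries and 90.7% and 86.4% in the knockin libraries. No single CpG among them exceeded 33.3% in a WT library or fell under 60% in a knockin library. Smc1b, a cohesin subunit of meiosis, starts at position 84962387 of chromosome 15, and its 9 measured CpGs had 21.9% and 27.5% in WT against 70.4% and 76.6% in knockin. Here single CpGs overlapped between groups, with up to 69.7% in WT replicate 2 and down to 16.7% in knockin replicate 2.

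Gal encodes the neuropeptide galanin and starts at position 3414544 of chromosome 19. Its 6 measured CpGs had 16.1% and 18.5% in WT and 59.9% and 52.2% in knockin. Sstr4, a somatostatin receptor, starts at position 148221113 of chromosome 2 and is the most completely measured of the 5, with 25 of 28 CpGs. They had 35.4% and 32.0% in WT and 69.0% and 69.9% in knockin. Ctnna2 encodes a neuronal catenin, starts at position 77929661 of chromosome 6, and had 13.7% and 7.38% in WT against 51.0% and 47.6% in knockin over 19 of 30 CpGs. In all 5 promoters both knockin libraries lay above both WT libraries, which follows from how the 5 were chosen.

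Averaged over all tested windows, methylation was 49.6% and 49.5% in WT and 53.3% and 51.7% in knockin. The group means were 49.5% ± 0.0568 (SD, n = 2) and 52.5% ± 1.13 (SD, n = 2), and the difference of 3.00 points had an exact two-sided permutation p of 0.333, the smallest that 2 against 2 libraries can give. Counting each CpG once gave 29.0% and 28.5% against 32.4% and 31.2%. Summing all reads turned the direction, with 31.3% and 21.4% in WT and 25.7% and 21.9% in knockin, where WT replicate 1 stood above the other three. The median window differed by 0.122 points, far less than the mean.

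Without a minimum gap, both knockin libraries lay above both WT libraries in 13402 windows (24.1%) and below in 9876 (17.8%). At 25 points the 2 counts were 884 and 57, at 40 points 148 and 8, and at 60 points 12 windows were gained. The largest gap was 92.8 points among gains and 51.9 among losses. For scale, the WT libraries differed from each other by 25 points or more in 2397 windows (4.32%) and the knockin libraries in 2487 (4.48%). Leaving out a library gives the rule fewer libraries to pass and raised both counts. Gains and losses numbered 2145 and 290 without WT replicate 1, 1905 and 180 without WT replicate 2, 1828 and 425 without knockin replicate 1, and 2473 and 192 without knockin replicate 2.

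In the gained windows the median level was 19.8% and 19.7% in WT and 65.1% and 65.4% in knockin. The quartiles were 11.2 and 33.8% in WT replicate 1 and 50.4 and 81.8% in knockin replicate 1. The median difference of group means was 41.0 points, and the median difference was 5.81 points between the WT libraries and 7.06 between the knockin libraries of the same windows. The rule chose windows with a large difference between the groups and a small one within them, so these values only describe its choice. Neither knockin library led: replicate 1 was the higher in 416 of the 884 windows (47.1%).

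**Figure D1:**
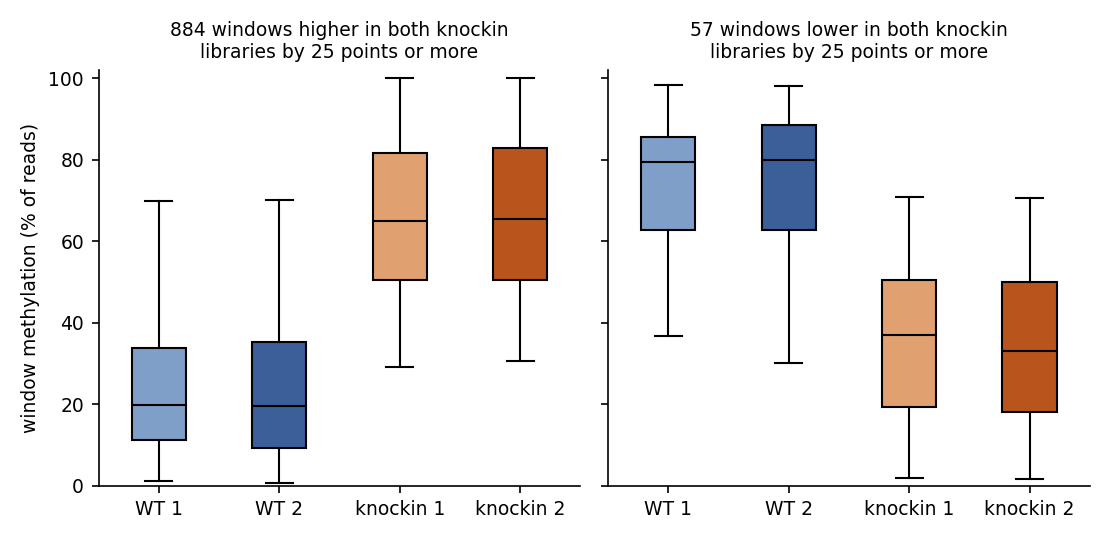
Window methylation in percent of reads in the 4 cMyc-Bcl2 libraries, for the 884 gained windows (left) and the 57 lost windows (right). Boxes span the quartiles with the median as a line, and whiskers reach the lowest and highest window. The rule that chose the windows sets the separation between groups, and what can be read is the levels, with medians of 19.8 and 19.7% in WT and 65.1 and 65.4% in knockin for gains.

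Most gains ended at an intermediate level. The knockin mean lay between 20 and 80% in 647 gained windows (73.2%), and both knockin libraries reached 80% in 190 (21.5%). Both WT libraries were under 10% in 116 (13.1%), and only 2 windows went from under 10% in both WT libraries to 80% or more in both knockin libraries. As a median, 55.8% of what was unmethylated in WT was methylated in knockin.

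Of the 7853 CpGs in gained windows, 6593 (84.0%) had both knockin libraries above both WT libraries, a share that the rule itself raises, since these CpGs make up the window levels that chose the windows. Every CpG did so in 393 of the windows (44.5%). A gained window held a median of 6 CpGs and 237 reads per library, against 5 and 213 over all windows.

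The share of gained windows depended on where WT stood. It was 0.268% of the 16029 windows with a WT mean under 5%, 5.90% of 6733 at 5 to 20%, 9.18% of 3974 at 20 to 50%, and 1.33% of 5923 at 50 to 80%. At a WT mean of 80% or more, where a gain of 25 points has no room, it was 0 of 22888. The same WT libraries enter the rule and these classes. The windows were also classed by the mean of the 3 MLL-AF9 WT libraries, which the rule did not use. Over the 28076 windows measured in both models the shares were then 0.230, 6.13, 9.26, 3.24 and 0.247%.

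All windows of a class, gained or not, followed the same order. With a WT mean of 20 to 50%, windows averaged 32.5% and 33.8% in WT and 48.8% and 44.9% in knockin, a difference of 13.7 points. At 5 to 20% the difference was 11.3 points, with 11.7% and 9.85% in WT and 23.7% and 20.5% in knockin. Under 5% it was 0.812 points, and at 80% or more it was -0.561. The same WT libraries enter these classes and differences. Classed by the MLL-AF9 WT mean, the difference was 0.917 points under 5%, 12.9 at 5 to 20% and 14.5 at 20 to 50%. At 80% or more it was then 0.602. This classing covers only windows measured in both models, 6485 in that class against 22888 before. The sign in that class thus changed with the classing and the set of windows together. The windows free of methylation in WT, the largest class after the fully methylated one, thus differed by under 1 point on average.

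CpG density, the number of CpGs listed per window in any of the 4 files, divided the gains in another way. Of the 38748 windows with under 20 CpGs 580 were gained (1.5%), of the 12612 with 20 to 59 there were 271 (2.15%), and of the 4187 with 60 or more there were 33 (0.788%). The order of the first pair was not stable. With density counted from the filtered CpGs alone the shares were 1.73, 0.908 and 0.347%, in windows of 500 bp they were 1.72, 1.60 and 0.641%, and without WT replicate 2 they were 3.69, 2.99 and 0.903%. Under each of these settings the densest class had the lowest share.

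Within bands of WT level the order by density differed. Among windows with a WT mean under 5% the gained share was lower in denser windows, at 0.680%, 0.146% and 0.0297%, the last being 1 of 3367 windows. At 5 to 20% it was 6.60%, 5.97% and 2.16%. Among windows at 20 to 50% it was higher in denser windows, at 8.25% under 20 CpGs, 12.5% at 20 to 59 and 16.5%, or 15 of 91, at 60 or more. Few dense windows lay in that band, 91 of 4187. The shares have no test here, since windows of 1 library are not replicates.

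**Figure D2:**
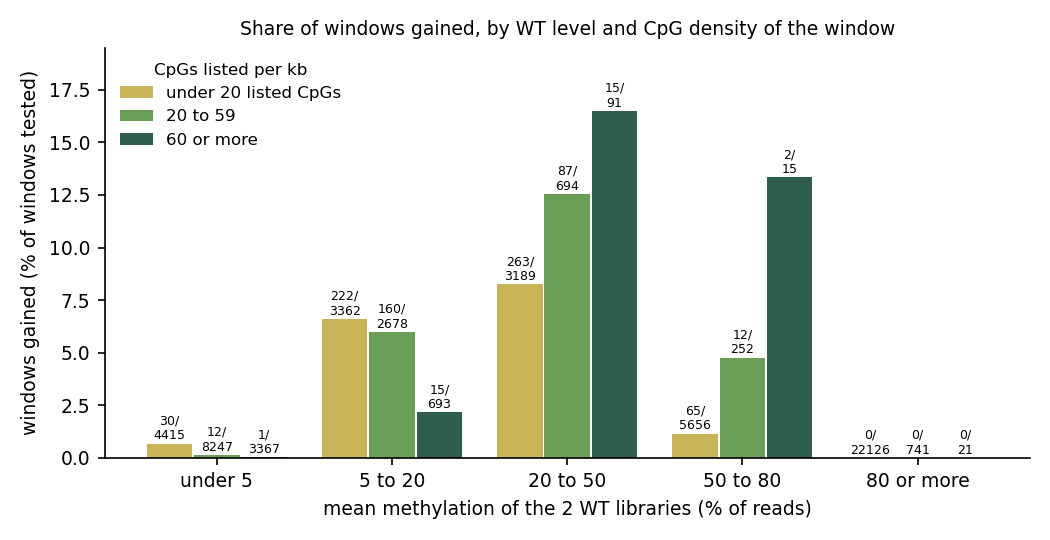
Share of tested windows that were gained, in percent, by the mean level of the 2 WT libraries (groups of bars) and by the CpGs listed per 1000-bp window (colours). Numbers above the bars give gained and tested windows. The highest bar is that of windows at 20 to 50% in WT with 60 or more CpGs, 16.5%, and all bars under 5% in WT lie below 1%.

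The window with the largest gap lay on chromosome 8 at 113494083 to 113494551 and held 16 measured CpGs. Its level was 3.80% and 3.44% in WT and 96.6% and 96.9% in knockin, from 425 to 868 reads per library. No WT library had a CpG above 22.2% there, and no knockin library had one under 89.8%. It was the only gained window past the threshold of the quasi-binomial fit with limma-moderated dispersion, at a difference of 93.2 points and an adjusted p of 0.0346. The call was lost without any one of the 4 libraries, with 20 reads as the minimum and with a trended dispersion. In MLL-AF9 the same window had 8, 98.8 and 100% in WT and 54.5, 94.2 and 96.2% in knockin, so its level ranged over nearly the whole scale within 1 genotype. The nearest start site that could be placed, of the RNA helicase gene Ddx19b, was 57169 bp away.

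The fit called 1 gained window (0.0018%) and 0 lost windows, and limma on M-values called the same numbers. An unadjusted p under 0.05 was found in 7356 windows with the quasi-binomial fit, 6179 higher in knockin (11.1%) and 1177 lower (2.12%), and in 6368 with limma on M-values. All 884 gained and all 57 lost windows were among those of the quasi-binomial fit, since the same 4 libraries choose and test them. The median adjusted p was 0.117 in gained and 0.137 in lost windows. With 2 libraries per group the gained windows, apart from the one on chromosome 8, therefore stand as measured differences that did not pass the adjusted test.

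Other windows of large gap were named by density. Among sparse windows, chromosome 11 at 88757465 to 88757507 had 17.8% and 15.7% in WT and 92.3% and 91.7% in knockin. Chromosome 9 at 59539628 to 59539841 had 13.3% and 24.3% against 90.0% and 88.3%. Chromosome 17 at 37186913 to 37186984 had 8.02% and 9.13% against 70.2% and 84.1%. In each of the 3 the knockin libraries lay over 60 points above the WT libraries, and none holds a placed start site.

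At 20 to 59 CpGs, chromosome 8 at 71923289 to 71923721 had 25% and 14% in WT and 92.9% and 96.8% in knockin. Chromosome 12 at 58635892 to 58635942 had 8.81% and 8.82% against 67.6% and 67.0%, with nearly equal libraries within each group. At 60 or more CpGs, the largest gap was on chromosome 12 at 110290626 to 110290993, with 14.8% and 10% against 65.8% and 75.8% over 27 CpGs. It lies 807 bp from the start of Begain, a gene of a synaptic scaffold-associated protein, whose own start-site window was gained as well, at 10.1% and 5.68% against 40.7% and 39.0%.

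A dense window on chromosome 8 at 74126024 to 74126841 held 41 measured CpGs and had 35.7% and 29.7% in WT and 80% and 94.7% in knockin. Dense windows on chromosome 3 at 94167319 to 94167744 and on chromosome 14 at 80168339 to 80168718 had 20.2% and 25% against 75.0% and 71.8%, and 24.1% and 17% against 66.8% and 72.2%.

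At the threshold itself the values were as follows. The nearest gain inside was on chromosome 8 at 109393937 to 109393989, with 42.3% and 60.6% in WT and 85.7% and 86.5% in knockin, and the next was on chromosome 16 at 92499005 to 92499420, with 11.9% and 6.02% against 37.0% and 37.6%. The nearest outside lay on chromosome 18, with 11.3% and 39.1% against 64.1% and 65.9%, and the next on chromosome 3 at 145613185 to 145613302, with 16.2% and 17.5% against 42.5% and 48.8%. For losses, chromosome 9 at 62196001 to 62196050 lay just inside, with 62.9% and 92.2% against 37.9% and 35.6%, as did chromosome 19 at 21704735 to 21704846, with 77.3% and 80.4% against 51.3% and 52.2%. A pair on chromosome 18 lay just outside, with 30.8% and 29.6% against 4.76% and 2.38%, and 46.5% and 72.0% against 21.8% and 14.5%. Windows on both sides of the threshold thus include some in which the WT libraries differ by more than 25 points from each other.

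At gene starts the share of gains was below that of all windows. A start site of one of 6537 placed promoters, of 5903 gene symbols, fell into 5400 tested windows. Of these 48 were gained (0.889%, against 1.59% of all windows) and 0 were lost. Their median WT level was 1.09% and their median difference -0.13 points. Only 2 of the 4470 start-site windows with a WT mean under 5% were gained, against 45 of 869 (5.18%) at 5 to 50%, a band in which 7.12% of all windows were gained. Start sites that were methylation-free in WT were thus rarely among the gains, and the low share at gene starts went with their low WT level.

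The gained start-site windows belonged to 49 symbols. Without predicted and unnamed genes, the largest gap was that of Sema4b, with 13.8% and 7.14% in WT and 88.2% and 80.1% in knockin. Sprn, which encodes the prion-like protein Shadoo, had 6.33% and 4.63% against 51.6% and 63.7%. Cyp2r1, the vitamin D 25-hydroxylase, began higher, at 40.6% and 40.5%, and had 89.5% and 84.0% in knockin. Their knockin and WT libraries were over 40 points apart.

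Genes of transcription factors were among them. Phox2a, a homeodomain factor of noradrenergic neurons, had 8.84% and 14.1% in WT and 54.6% and 72.9% in knockin. Hoxd1, of the Hox family that patterns the body axis, had 20.6% and 16.8% against 58.4% and 67.6%. Isl1, a LIM-homeodomain factor of motor neurons and heart progenitors, had 10% and 3.51% against 60.6% and 47.4%. In Isl1 the gain lay outside the promoter bases: over the 300 bases around the start it had 9.84% and 2.91% in WT and 9.88% and 14.1% in knockin. Over the same bases Hoxd1 had 32.7% and 4.27% against 49.8% and 38.6%, and there too both knockin libraries were above both WT libraries, by under 25 points at the nearest.

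Dmrta2, a factor of the developing cortex, had 3.51% and 3.44% in WT and 38.9% and 37.4% in knockin, one of the few gains from a nearly unmethylated start. Otp, a homeodomain factor of the hypothalamus, had 8.73% and 14.2% against 43.1% and 56.8%. Ptf1a, a factor of pancreas and cerebellum, had 9.32% and 6.52% against 36.0% and 42.0%. In these windows all 3 reached 36.0 to 56.8% in knockin, without a library near full methylation. Over the 300 bases around the start, Ptf1a had 3.82% and 0.671% in WT against 12.2% and 38.1% in knockin. Otp had 10.1% and 14.8% against 38.6% and 51.8% over those bases. For Ptf1a and Otp the groups were there under 25 points apart at the nearest.

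Receptor genes were also among the gained start sites, and 4 of them are given here. Grik3, a kainate receptor subunit, had 18.0% and 14.2% in WT and 52.3% and 55.2% in knockin over 48 CpGs. Crhr1, the receptor of corticotropin-releasing hormone, had 14.2% and 6.76% against 44.5% and 44.7% over 52 CpGs. Npy5r, a receptor of neuropeptide Y, had 14.9% and 8.92% against 41.8% and 45.0%. Sstr4, described above by its promoter, had 31.5% and 21.9% against 62.3% and 63.7%. In the windows of these 4 genes the gap between the groups was 26.9 to 34.3 points. The grouping by function was made after the values were seen and no enrichment was tested.

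**Figure D3:**
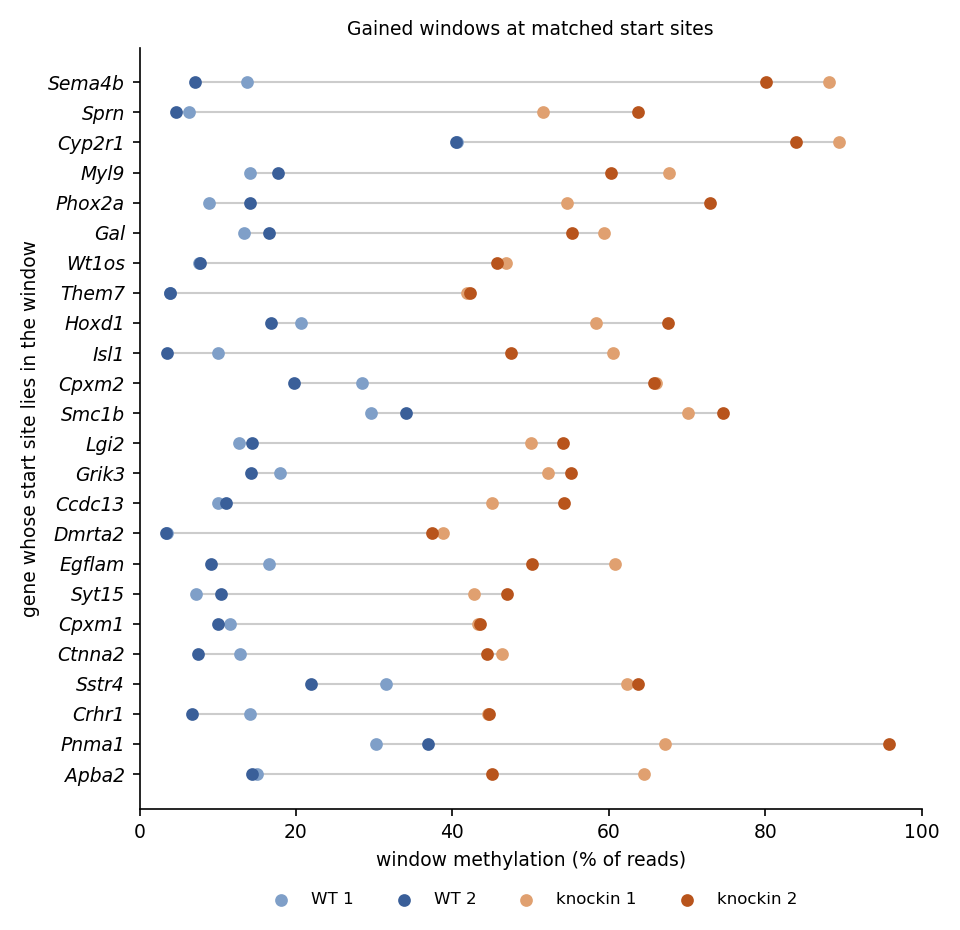
Methylation of gained windows at the start sites of 24 named genes, in percent of reads, one row per gene in order of the gap and one point per library. WT libraries (blue) lie mostly under 40% and knockin libraries (orange) mostly between 40 and 75%, with Sema4b, Cyp2r1 and Pnma1 reaching above 80%.

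Gene families were described by lists chosen with earlier results known. For all 5400 start-site windows, both knockin libraries lay above both WT libraries in 1005 (18.6%), and 48 were gained (0.889%). Their median WT level was 1.09%, below that of each list with a tested window. The list medians ran from 3.06% for Lhx to 20.5% for imprinted genes, so the lists were not matched to all start sites in WT level. Of the 5 Hox windows 4 did so, with a median difference of 19.3 points, and 1, Hoxd1, was gained. Hoxd9 had 4.19% and 3.83% in WT and 21.9% and 35.0% in knockin, Hoxd10 27.9% and 20.6% against 38.0% and 49.2%, and Hoxa13 stayed at 1.88% and 0.745% against 2.78% and 2.23%. At Hoxa6 the libraries overlapped, with 63.0% and 37.1% against 94.4% and 39.3%.

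The other lists held no gained window. With 0.889% gained over all start-site windows, lists this small would hold few in any case. Both knockin libraries lay above both WT libraries in 3 of 3 Pax, 4 of 6 Sox, 4 of 11 Fox, 2 of 4 Gata, 1 of 1 Tbx, 4 of 6 Nkx and 2 of 3 Lhx windows, with medians of 7.41, 6.35, 0.817, 2.87, 9.39, 6.23 and 3.10 points. The largest gap between the groups among them was that of Gata5, a factor of heart and gut, with 5.98% and 4.35% in WT and 26.4% and 28.2% in knockin. Sox14, a factor of neurons, had 10.4% and 9.04% against 39.6% and 26.6%, a larger difference of means with a smaller gap. Gata3 and Tcf7, regulators of T cells, had 2.74% and 1.29% against 2.03% and 2.72%, and 3.82% and 4.51% against 3.46% and 5.04%, and the groups overlapped. No window at a start of the 4 myeloid regulators listed was tested.

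Of 4 windows at imprinted genes, whose alleles differ in methylation by parental origin, none was gained by the rule. Over all start-site windows the gained share was 0.889%. Grb10, a growth inhibitor, had 17% and 5.58% in WT and 42.4% and 26.5% in knockin. Igf2, a fetal growth factor, had 5.57% and 5.30% against 15.7% and 14.8%. Igf2r and Plagl1 overlapped between groups, at 27.6% and 31.8% against 36.1% and 26.8%, and at 44.1% and 42.9% against 47.8% and 41.2%. The list left out Zdbf2, another imprinted gene, which is described next.

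Gained windows lay near each other. Another gained window was found within 1 kb of 71 of them (8.03%), against 0.651% of the windows that were not gained. Within 10 kb the shares were 14.3% and 2.86%, within 50 kb 21.5% and 9.18%, and within 200 kb 37.3% and 25.3%. The number of tested windows within 200 kb was a median of 18 around gained windows and 16 around all windows, so they also lay where more was measured. Adjacent windows can share sequenced fragments.

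Around the gained windows the difference was smaller than within them at every distance measured. The rule chose the windows at the centre for a large difference, so a peak there was set in advance. Tested windows 1 kb to either side differed by 20.8 and 19.3 points, and in 79.8% and 75.7% of them both knockin libraries lay above both WT libraries. At 2 kb the differences were 10.8 and 13.1 points. Farther out they did not fall steadily: they were 5.81 to 10.9 points from 3 to 9 kb on the left and 7.59 to 12.2 points from 3 to 14 kb on the right. At 20 kb they were 2.02 and 2.60 points, and the mean over all tested windows was 3.00. Windows 1 kb away had 26.6% and 24.9% in WT and 48.7% and 44.4% in knockin on the left side.

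**Figure D4:**
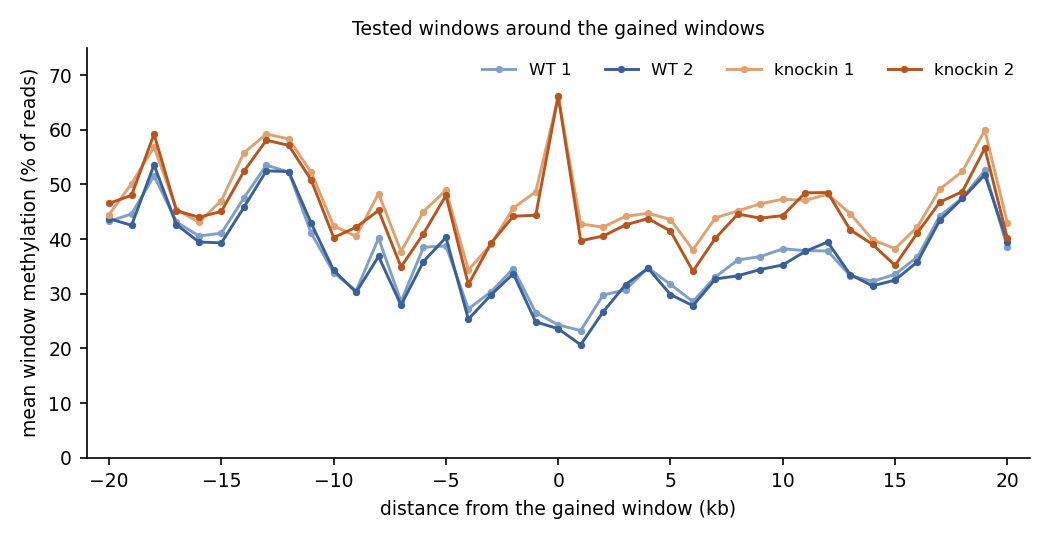
Mean methylation of tested windows in percent of reads (y) by their distance in kb from a gained window in genome order (x), one line per cMyc-Bcl2 library. The knockin lines (orange) peak at 66.0 and 66.2% at the gained window, where the WT lines (blue) are at 24.3 and 23.6%. A smaller separation remains over most distances shown. The rule that chose the gained windows sets the peak.

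Split into 9770 bins of 200 kb, 645 bins held 1 gained window, 89 held 2, 15 held 3 and 4 held 4. The 108 bins with at least 2 contained 239 gained windows (27.0%), against 3.09% of all tested windows. These shares are not alike, since a gained window needs 1 other gain in its bin and any other window needs 2. Counted alike, by another gained window within 200 kb, the shares were 37.3% of gained windows and 25.3% of the others. In 9 bins there were both a gain and a loss. Bins with more gains were more densely measured, with a median of 3 tested windows where there was no gain, 9 where there was 1 and 23 where there were 4. In bins of 100 kb the share of gained windows with company was 20.8% and in bins of 500 kb 42.5%. Of all tested windows 1.61% and 9.24% lay in bins with at least 2, and these pairs of shares are unlike in the same way.

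The bin with the highest share among those with 4 was on chromosome 1 from 63200001 to 63400000, where 4 of 11 tested windows were gained. They averaged 23.6% and 13.2% in WT and 59.3% and 58.2% in knockin, against 52.6%, 52.9%, 61.9% and 65.3% in the other 7. The window at 63319743 to 63319979 holds the starts of Zdbf2, a paternally expressed imprinted gene, and of Gm11608 on the other strand. It had 30.4% and 16.6% in WT and 56.0% and 60.3% in knockin, and the next window to the right 19.4% and 16.6% against 61.7% and 55.5%. The other pair lay to the left, where the window at 63294948 to 63294989 had 25% and 12.2% against 67.1% and 71.6%.

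On chromosome 14 from 122800001 to 123000000, 4 of 18 windows were gained, and the gained ones averaged 11.2% and 8.72% in WT and 51.8% and 49.3% in knockin. The other windows of that bin were also higher, at 18.6% and 21.7% against 32.5% and 29.7%. On chromosome 5 from 140000001 to 140200000, 4 of 28 were gained, at 8.19% and 7.57% against 44.8% and 45.7%. The other windows there had 34.7% and 36.5% against 47.9% and 43.9%. One of the gained windows lay 2351 bp from the start of Uncx, a homeobox gene of the somites, and had 7.67% and 5.67% against 36.2% and 36.2%.

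On chromosome 8 from 73200001 to 73400000, 4 of 47 windows were gained, at 31.6% and 40.7% in WT and 83.3% and 80.3% in knockin, while the rest of the bin had 35.3% and 35.1% against 37.5% and 35.0%. On chromosome 4 from 57600001 to 57800000, 3 of the 4 tested windows were gained, at 28.1% and 16.7% against 66.5% and 64.3%. The gains of the chromosome 8 bin were thus single windows among others that overlapped on average. Those on chromosomes 1, 5 and 14 sat among windows that were on average also higher in both knockin libraries.

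Losses were few and sparse in CpGs. Of the 57 lost windows 56 had under 20 listed CpGs and 1 had 60 or more. Their median level was 79.5% and 80% in WT and 37.1% and 33.2% in knockin, a median difference of -38.6 points. They held a median of 3 CpGs and 131.5 reads per library, fewer than the 5 and 213 of all windows, and with at least 5 CpGs only 14 were left, against 558 gains. Of their 256 CpGs 228 (89.1%) had both knockin libraries below both WT libraries, a share that the rule itself raises. None of the 57 passed the fit after adjustment, as against 1 of the gained windows. Libraries of 1 group lay 25 points or more apart in 4.32% of windows within WT and 4.48% within knockin. Those shares compare 2 libraries and the rule compares pairs, so they cannot be set directly against 0.103% lost or 1.59% gained. The rule has no test, so neither count was shown to exceed that spread.

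By WT level, losses made up 0.439% of windows at 50 to 80% and 0.118% of those at 80% or more. Both WT libraries were at 80% or more in 22 of the lost windows (38.6%), and both knockin libraries were under 20% in 13 (22.8%). Another lost window lay within 200 kb of 4 of them (7.02%), against 1.93% of other windows. A gained window lay within 200 kb of 22.8% of the lost windows and of 25.5% of the others, close to the same share.

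The largest loss was on chromosome 6 at 101141152 to 101141223, with 83.3% and 63.1% in WT and 11.2% and 5.03% in knockin over 3 CpGs. On chromosome 5 a neighbouring pair was lost, at 145940651 to 145940758 with 63.2% and 56.5% against 18.3% and 6.33%, and at 145941253 to 145941722 with 59% and 76.7% against 18.9% and 10.4%. The other windows of that bin had 33.5% and 33.4% against 32.6% and 32.7%, without a loss on average. On chromosome 4 at 46934129 to 46934174 the values were 76.7% and 86.9% against 31.2% and 21.3%.

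The single dense lost window lay on chromosome 4 at 133807238 to 133807777 and held 23 measured CpGs. It had 36.7% and 30.1% in WT and 1.78% and 1.62% in knockin, from 455 to 1124 reads, with no knockin CpG above 10.5%. Its adjusted p in the quasi-binomial fit was 0.0788, the lowest reached by a lost window. In MLL-AF9 it had 27.0, 0.613 and 0% in WT and 1.87, 35.9 and 2.74% in knockin, so it also differed between libraries of 1 genotype there.

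The libraries of MLL-AF9 leukaemia, which the rule did not use, gave a second measurement of these windows in another leukaemia and cell fraction. Of the 884 gained windows 489 were measured in all 6. Their medians were 18.5, 24.5 and 15% in WT and 38.6, 33.3 and 25.9% in knockin, and each knockin median lay above each WT median. That order was not particular to gained windows. It also held over all windows measured in both models, with 3.85, 4.37 and 3.80% against 7.92, 6.76 and 5.45%. The windows with a cMyc-Bcl2 WT level of 5 to 50% and the lost windows showed it too. For gained windows the size of the difference is therefore given beside that of other windows. The median difference was 10.9 points, against 0.756 over the 28076 windows measured in both models and 4.38 over those with a cMyc-Bcl2 WT level of 5 to 50%. A difference of 10 points or more upward was found in 263 gained windows (53.8%), against 11.9% of all and 27.5% of those at 5 to 50%. All knockin libraries were above all WT libraries in 149 (30.5%), against 18.9% of all and 25.6% of those at 5 to 50%. Of the 435 measured gained windows within that band 129 did so (29.7%), so the share stood little above that of the band. The band was not matched in MLL-AF9 level, with a median WT mean of 10.4% against 20.4% in the gained windows. All knockin libraries were below all WT libraries in 3 gained windows (0.613%), against 1.34% of all and 0.842% of those at 5 to 50%.

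**Figure D5:**
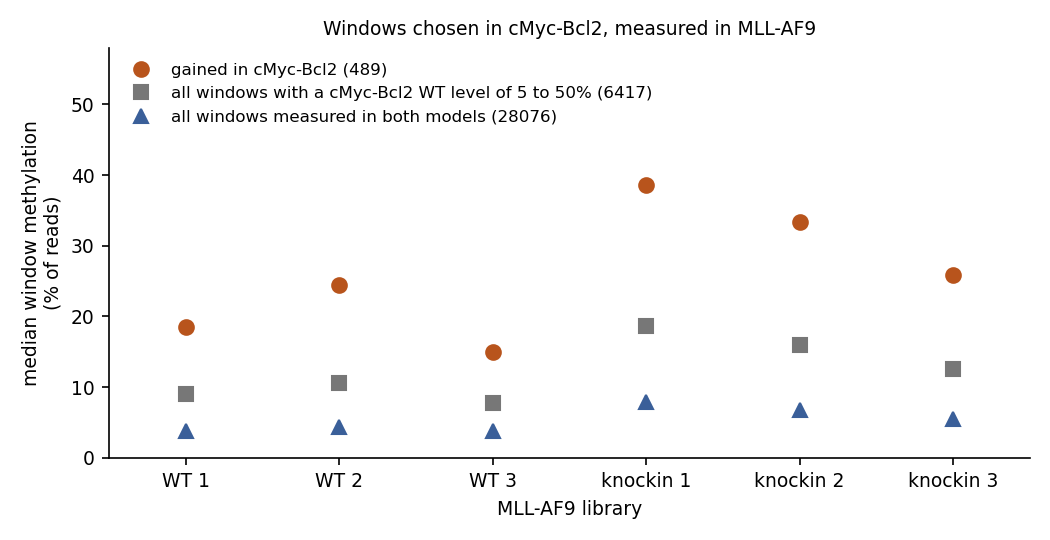
Median methylation, in percent of reads, of 3 sets of windows in each MLL-AF9 library: the 489 windows gained in cMyc-Bcl2 (circles), the 6417 with a cMyc-Bcl2 WT level of 5 to 50% (squares) and all 28076 measured in both models (triangles). The circles lie at 15 to 24.5% in WT and at 25.9 to 38.6% in knockin.

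Of the gained start-site windows 39 were measured in MLL-AF9. The knockin mean lay above the WT mean in 37, by 10 points or more in 24, and the 3 knockin libraries were all above the 3 WT libraries in 16. Over all windows the knockin mean was the higher in 76.1%, by 10 points or more in 11.9%, and all knockin libraries were above in 18.9%; among windows at 5 to 50% these shares were 80.7%, 27.5% and 25.6%. Pnma1, a gene of the paraneoplastic antigen family, had 30.2% and 36.9% against 67.1% and 95.9% in cMyc-Bcl2 and 58.2, 48.3 and 52.6% against 96.7, 89.1 and 85.7% in MLL-AF9. At Myl9, a myosin light chain of smooth muscle, the values were 14.1% and 17.7% against 67.6% and 60.3%, and 0, 3.45 and 4.62% against 18.5, 19.1 and 12%. Sema4b did not separate there, with 92.0, 94.0 and 5.66% in WT and 93.9, 47.8 and 56.9% in knockin.

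Few lost windows could be followed. Of the 57 lost windows 18 were measured in MLL-AF9, and 0 of them were lower in knockin by 10 points or more, against 0.869% of all windows measured in both models. The knockin mean was the higher one in 13 (72.2%), near the 76.1% of all windows. It was higher by 10 points or more in 7 (38.9%), against 11.9% of all windows and 17.4% of those with a cMyc-Bcl2 WT level of 50% or more. All knockin libraries were above all WT libraries in 5 (27.8%), against 18.9% and 20.7%. The median difference was 5.92 points, against 0.756 and 2.61 points. The difference between models was not tested for these windows, since they were chosen in one of the models.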

How the data were processed

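Bisulfite libraries were made from 0.3 to 1 µg of MspI-cut DNA with inserts of 40 to 280 bp, per the labels' protocols. Per the submitters' processing notes the authors used CASAVA, Trim Galore 0.2.2, Bismark 0.7.4, methylKit and build mm9. How these tools were set is not given in the sources used here. The deposited files pair each position with 2 counts, of methylated and of unmethylated reads. Each position was the cytosine of 1 strand (37.4 to 49.9% per library had a consecutive neighbour), so consecutive positions were joined here as 1 CpG.

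A window level is the percent methylated of all reads summed in the window. Reads were fitted with a quasi-binomial logistic model, whose dispersion, never set under 1, was moderated with squeezeVar of limma 3.58.1 (R 4.3.3). F-test p-values were adjusted by Benjamini-Hochberg over all windows, and windows were called at an adjusted p under 0.05 with 10 points or more between group means. Group means of library levels were compared by an exact permutation test. The fit was tested on simulated counts. The rest was computed with numpy 2.4.6, pandas 2.3.3 and numba 0.67.0 in Python 3.11.15.

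Windows were named by a rule: per density class the 4 gains and 3 losses of largest gap with at least 5 CpGs and 50 reads per library, 1 per 200-kb bin, the 5 bins with most gains and 3 with most losses, the 2 windows nearest the threshold on each side, and any window called by the fit. Members, rule and lists were chosen with earlier results of these data known. Groups came from the oncogene and knockin labels.

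No mm9 genome or annotation was used. Of 31396 autosomal RefSeq promoters of 300 bases, 17846 had enough CpGs to try, 6682 matched listed positions at 1 place with at least 12 positions, and 6537 of them (97.8%) also fitted the spacing to a neighbouring match within 1000 bp and were kept. This naming was added after the files were seen, although the planned rule named no genes, and start sites without enough listed CpGs were not analysed here. Sequences of other windows are not shown. Reads can be copies of 1 molecule, and depth speaks to counting error alone. The alternatives were coverage minimums of 20 and 5 reads, 500-bp windows, at least 5 CpGs, each CpG once, no top 0.1% of coverage, no chromosomes 15 to 17, centred levels, other gaps, other bins, other fits, each library left out, and, added after seeing the data, strands not joined and means weighted by CpG or by read.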

Additional observations from a re-analysis of the deposited data

Results flagged for a closer look

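A lost window on chromosome 16 at 91766291 to 91766383 moved the other way in the second leukaemia. It had 82.4% and 82.6% in WT and 42.4% and 41.7% in knockin in cMyc-Bcl2. In MLL-AF9 it had 88.2, 94.8 and 87.1% in WT and 95.2, 97.8 and 95.2% in knockin, a difference of 6.06 points upward. The difference between the models was not tested.

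The start-site window of Ctnna2 had 12.9% and 7.46% in WT and 46.3% and 44.4% in knockin in cMyc-Bcl2. In MLL-AF9 every knockin library lay below every WT library, with 19.8, 24 and 32.8% in WT and 18.0, 14.9 and 12.8% in knockin, a difference of -10.3 points. The difference between the models was not tested.

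Chromosome X was outside the comparison, which was limited to the autosomes, and the calls on chromosome Y differ between the WT libraries. Of the 1378 windows on chromosome X that met the same filters 9 were gained and 1 was lost. On the autosomes 884 of 55547 were gained (1.59%) and 57 were lost (0.103%). Mean levels on chromosome X were 63.3% and 60.3% in WT and 65.4% and 62.8% in knockin, and the groups overlapped.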

How the results depend on the processing

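The counts of gained windows and lost windows followed the settings of the rule. With at least 5 CpGs per window there were 558 and 14, with a gap of 15 points 2408 and 199, with a gap of 40 points 148 and 8, and with no overlap and a mean difference of 25 points 2544 and 205. With 20 reads as the minimum 22 windows were lost and 596 gained. With 1 library left out, gained windows numbered 1828 to 2473 and lost windows 180 to 425. Gains outnumbered losses under each of these settings, with centred levels (650 and 82) and with strands not joined (874 and 54 of 54108 windows). For windows called by the fit, gained, the quasi-binomial fit gave 0 with 20 reads as the minimum (4572 with an unadjusted p under 0.05), 0 with a trended dispersion (7203), and 0 to 0 with 1 library left out (4694 to 7426). The lone library left in a group is then assumed to vary like the other group. The cause was not tested. The difference in mean window methylation reversed to -2.60 points with all reads summed and was 2.14 to 3.81 points under the other settings. Centring gives no value for it, since it sets the difference to 0 by construction. Of 970 values for the 85 named and start-site windows under the alternatives, 0 reversed and 55 moved by over the replicate SD. These windows were chosen for a gap of 25 points or more in the same libraries. The lack of reversals therefore follows largely from that choice and says little about other windows. No paired analysis was possible because the labels give no replicate numbers that the groups share. Depth limits sparse windows most, and losses rest on a median of 3 CpGs.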
